A study of Mus musculus with 4 samples.

Results

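Methylation at single CpGs was compared between the brain of 1 wild-type (WT) embryo whose dam was fed excess folic acid (FA, 30 ppm) and that of 1 WT embryo whose dam was fed control FA (3 ppm). These were 2 of the 4 libraries of the series, chosen by the genotype and diet in the labels. Both were made by whole-genome bisulfite sequencing (WGBS), in which unmethylated cytosines are read as thymine, so that the reads still showing a cytosine give the methylation level. Each library came from an individual male embryo at E11.5 of gestation, and the tissue ran from the rostral forebrain to the caudal hindbrain. The dams carried 1 copy of a Tet1 knockout allele of C57BL/6 origin on the 129S6 background. These WT embryos thus came from the same kind of cross as the Tet1 knockout (KO) embryos of the other 2 libraries. The labels of the 4 embryos name different timed pregnancies, so litter differs with genotype as well. The study's sample list for a reduced-representation assay holds embryos of the same numbers, genotypes and diets, and records a neural tube defect in both KO embryos and none in the WT embryos, so genotype and defect cannot be told apart. Both diets were semi-purified, contained an antibiotic that limits folate made by gut bacteria, and were fed for at least 4 weeks before mating. With 1 library a side, diet, dam, litter, embryo and library cannot be told apart, no value has an SD, and the tests below compare these libraries, not the diets.

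Folate carries one-carbon units through the cytosol and mitochondria. These units are used, among other things, to turn homocysteine into methionine, from which S-adenosylmethionine, the methyl donor of the DNA methyltransferases, is made. In mammalian DNA most CpGs are methylated, and CpG islands at promoters are the main exception. Imprinted genes carry methylation on the copy from 1 parent only, laid down in the germ line and kept in somatic tissue, so their control regions read at intermediate levels. Maternal folate is known for its protective role in neural tube closure, which is completed shortly before the stage sampled here.

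The 6 regions that the results below turn on most are shown first, on the plus strand of GRCm38.p6 and with each CpG in capitals, so that the density of the measured sites can be seen. The first 5 are differentially methylated regions (DMRs) that the authors deposited for this comparison. They lie in an intron of Gpc5 (chr14:115206109-115206328), in an exon and intron of Hnrnpa2b1 (chr6:51467045-51467277), in an intron of Qk (chr17:10314794-10315010), between genes with Cstf3 nearest (chr2:104572834-104573093) and in an intron of the imprinted gene Peg10 (chr6:4747624-4747836), each given 1 base past its deposited end to close the last CpG. The last is the 300 bases before the start site of Atf4 (chr15:80254884-80255183).
Gpc5: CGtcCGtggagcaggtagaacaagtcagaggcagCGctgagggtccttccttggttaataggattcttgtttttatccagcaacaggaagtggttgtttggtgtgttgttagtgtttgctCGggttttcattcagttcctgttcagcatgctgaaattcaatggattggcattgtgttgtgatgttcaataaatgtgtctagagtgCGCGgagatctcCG
Hnrnpa2b1: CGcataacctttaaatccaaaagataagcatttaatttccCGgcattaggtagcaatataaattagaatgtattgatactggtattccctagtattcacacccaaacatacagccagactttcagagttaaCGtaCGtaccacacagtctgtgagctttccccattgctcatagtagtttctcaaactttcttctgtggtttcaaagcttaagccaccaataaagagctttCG
Qk: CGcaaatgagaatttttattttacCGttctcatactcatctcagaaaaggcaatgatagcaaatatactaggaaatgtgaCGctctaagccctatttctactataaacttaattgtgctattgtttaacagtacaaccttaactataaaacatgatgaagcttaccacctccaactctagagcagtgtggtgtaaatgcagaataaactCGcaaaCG
Near Cstf3: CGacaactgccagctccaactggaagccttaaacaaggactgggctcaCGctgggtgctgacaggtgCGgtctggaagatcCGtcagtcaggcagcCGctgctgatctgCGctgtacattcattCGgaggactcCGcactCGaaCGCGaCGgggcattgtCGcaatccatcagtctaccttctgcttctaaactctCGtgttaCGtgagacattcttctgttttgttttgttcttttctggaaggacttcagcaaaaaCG
Peg10: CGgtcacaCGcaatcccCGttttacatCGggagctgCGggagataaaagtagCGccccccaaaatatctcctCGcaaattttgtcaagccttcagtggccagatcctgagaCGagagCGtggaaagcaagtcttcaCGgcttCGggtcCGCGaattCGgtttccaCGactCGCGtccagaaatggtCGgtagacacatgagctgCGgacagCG
Atf4: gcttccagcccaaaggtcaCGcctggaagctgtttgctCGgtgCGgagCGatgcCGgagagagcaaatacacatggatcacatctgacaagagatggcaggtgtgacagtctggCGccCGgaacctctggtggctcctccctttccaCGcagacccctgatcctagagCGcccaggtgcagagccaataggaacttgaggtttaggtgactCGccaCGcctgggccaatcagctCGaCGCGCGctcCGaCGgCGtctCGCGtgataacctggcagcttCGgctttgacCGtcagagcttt

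On each of these stretches the measured CpGs differed in 1 direction. At Gpc5, 7 of 7 CpGs were higher at 30 ppm, with levels of 50% to 80% against 12.5% to 46.7%, each from 10 to 16 reads at 30 ppm and 15 to 19 reads at 3 ppm. In Hnrnpa2b1, 5 of 5 CpGs were lower at 30 ppm, at 23.5% to 53.3% against 64.7% to 92.3%, from 15 to 18 and 13 to 22 reads. In Qk, 5 of 5 CpGs were lower, at 23.8% to 48.0% against 64.5% to 87.1%. At the region nearest Cstf3, 16 of 16 CpGs were higher, at 15.4% to 65.2% against 5% to 35%, from 13 to 25 and 16 to 25 reads. In Peg10, 20 of 20 CpGs were higher, at 66.7% to 100% against 30% to 70%, from 6 to 13 and 9 to 13 reads. Before Atf4, 17 of 22 CpGs had 5 reads in both libraries, and 17 of those 17 were higher, at 14.3% to 50% against 0% to 23.5%. The Atf4 levels rested on 5 to 7 reads per CpG at 30 ppm and 11 to 21 at 3 ppm. Neighbouring CpGs are often covered by the same reads, so the agreement of CpGs within a stretch is not a count of independent observations. The DMRs were called on these same libraries and Atf4 was picked for its WT difference. The agreement in direction is therefore in part given by that choice and tests nothing.

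Mean coverage of autosomal CpGs was 14.3 reads at 30 ppm and 16.2 reads at 3 ppm. Incomplete conversion, read from mitochondrial CpGs, was 0.934% and 0.938%. Of 18974562 autosomal CpGs listed in any library, the 15830064 with at least 5 reads in both WT libraries (83.4%) were compared.

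The 2 WT embryos differed along 1 stretch of chromosome 10, the chromosome that carries Tet1. From 66 to 70 Mb, 387 of 32463 CpGs with at least 8 reads were at 10% or less at 3 ppm and at 35% or more at 30 ppm, and 17 had the opposite pattern. In 1 Mb windows of that stretch these CpGs made up 83.7 to 164 per 10000, against a median of 2.17 over 2391 windows of the autosomes and at most 22.0 elsewhere. The 350 of them with 8 reads in each of the 4 libraries had a median level of 0% in the WT library of the control diet and 53.1% in that of the excess diet (quartiles 43.0% and 61.4%). In KO the order was reversed, with 91.2% on control FA (85.4% and 95.8%) and 50% on excess FA (41.7% and 60%). A CpG whose cytosine is a thymine in another strain reads as unmethylated on that copy; whether these CpGs carry such a base was not tested. Counts of called tiles are given with and without chromosome 10 from 65 to 70 Mb.

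**Figure D1:**
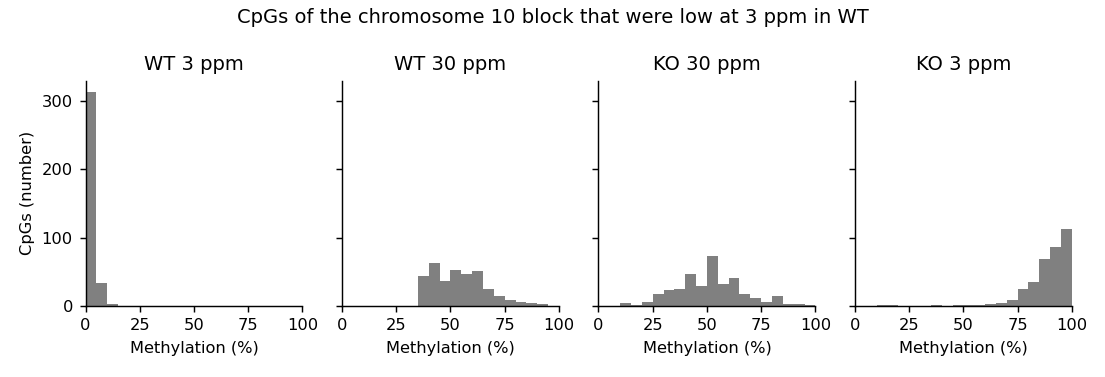
Methylation level (percent, x axis) and number of CpGs (y axis) in each of the 4 libraries, for the 350 CpGs of chromosome 10 from 66 to 70 Mb that were at 10% or less in WT at 3 ppm and at 35% or more in WT at 30 ppm, with 8 reads in each library. The WT values were fixed by this choice; the KO values, which it did not use, had medians of 50% at 30 ppm and 91.2% at 3 ppm.

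The first question was whether excess FA went with a different overall level of methylation. The mean over CpGs was 80.7% at 30 ppm and 81.4% at 3 ppm, a difference of -0.647 percentage points (points below). The difference was negative on 19 of 19 autosomes, from -0.749 points on chromosome 3 to -0.588 points on chromosome 17. It was also negative in 2370 of 2389 windows of 1 Mb (99.2%), with a median of -0.688 points and quartiles of -0.856 and -0.517. The window that was lowest at 30 ppm lay on chromosome 1 from 99 to 100 Mb, at -1.64 points. Of the 4 windows with the largest positive values, 3 lay in the stretch just described (chromosome 10 from 66 to 67, 68 to 69 and 69 to 70 Mb, 0.411 to 0.672 points) and 1 on chromosome 10 from 81 to 82 Mb (0.697 points). The 95% counting interval on the pooled reads reaches 0.00659 points to either side, but the spread between embryos of one diet is not measured, so the difference cannot be set against it. In the KO pair, which shares neither library, the same contrast had a median of 0.758 points over 1 kb tiles, where WT had -0.593 points over the same tiles.

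Most of the lower level lay outside CpG islands. CpGs far from islands (open sea, 91.0% of those compared) were at 83.3% at 30 ppm and 84.01% at 3 ppm, a difference of -0.667 points. CpGs of shelves, 2 to 4 kb from an island, were at 79.2% and 79.8%, and CpGs of shores, within 2 kb, at 50.8% and 51.3%. CpGs of islands were at 14.4% and 14.3%, a difference of 0.134 points in the other direction. Around the start sites of 20807 protein-coding genes, the level dropped from 76.6% at 30 ppm and 77.1% at 3 ppm, 4 to 5 kb upstream, to 21.4% and 21.5% within 500 bp. The difference there was -0.0663 points, against -0.435 points upstream and -0.611 points 4 to 5 kb downstream. It was negative in 98 of 100 bins of 100 bp.

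**Figure D2:**
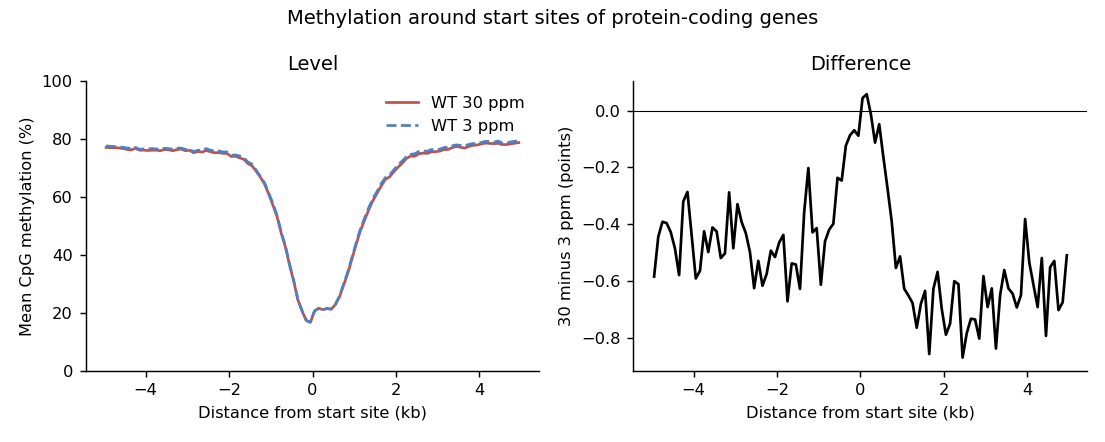
Mean CpG methylation (percent, left) in the WT libraries at 30 ppm (solid) and 3 ppm (dashed), and their difference in points (right), in bins of 100 bp from 5 kb before to 5 kb after the start sites of 20807 protein-coding genes. The 2 level curves lie almost on each other, and the difference comes closest to 0 at the start site and reaches further below 0 inside genes than upstream.

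In 1 kb tiles, the difference followed the level of the tile and its sequence. Tiles were binned by their mean level in the 2 KO libraries, which the WT contrast does not use. The mean difference was -0.00929 points in tiles at 5% or less, -1.08 points in tiles from 40% to 60% and -0.427 points in tiles above 95%. The share of tiles with a lower level at 30 ppm was 46.9%, 55.4% and 54.7% in these bins. By GC content, the mean difference ran from -0.875 points in tiles of up to 35% GC to 0.185 points in tiles above 60% GC. By CpG number, it was -0.720 points in tiles with 3 or 4 CpGs, -0.412 points with 21 to 40 and 0.364 points with more than 40. Level, GC content and CpG number go together along the genome, and their separate parts in the difference were not tested.

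**Figure D3:**
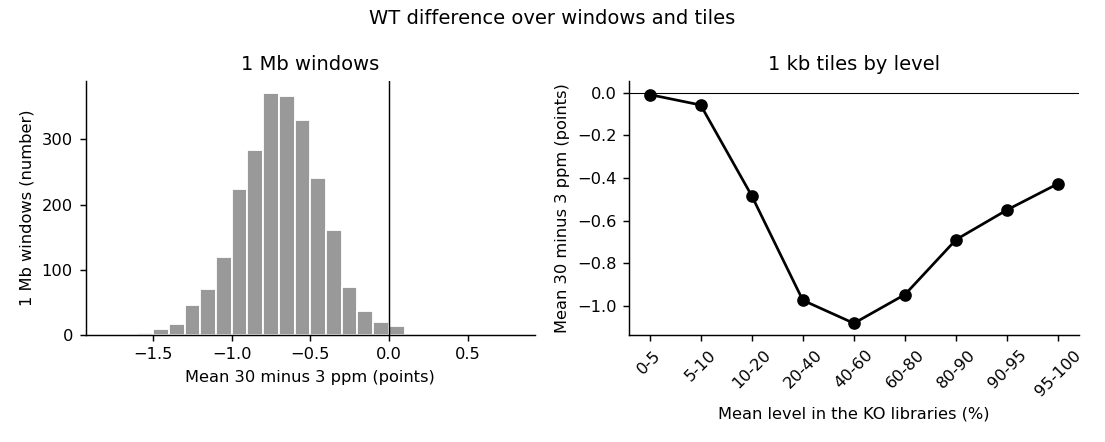
Left, number of 1 Mb windows (y axis) by their mean difference over 1 kb tiles, 30 minus 3 ppm in points (x axis); 2370 of 2389 windows lie below 0. Right, mean WT difference of 1 kb tiles in points (y axis) by the mean methylation level of the tile in the 2 KO libraries (x axis); it is near 0 at the lowest levels and reaches -1.08 points from 40% to 60%.

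At the scale of 1 kb tiles, 771 tiles were lower and 187 were higher at 30 ppm out of 1910163 tested. A tile was called at a Benjamini-Hochberg adjusted p under 0.05 in a two-sided Fisher's exact test on the reads and a difference of at least 10 points. The calls made up 0.0404% (hypo) and 0.00979% (hyper) of the tiles. Before adjustment 6.59% of the tiles had a p under 0.05. Hypo tiles had a median level of 58.5% at 30 ppm and 79.1% at 3 ppm. Hyper tiles had a median of 79.9% and 54.2%. Islands and shores held 7.49% and 17.6% of the hyper tiles and 0.908% and 5.97% of the hypo tiles, against 0.513% and 3.04% of all tiles tested. A start site lay within 1 kb of 37 hyper tiles (19.8%) and 52 hypo tiles (6.74%), and of 3.73% of all tiles tested. Called tiles held a median of 16 (hyper) and 14 (hypo) CpGs, against 7 for all tiles tested. The shares in islands, in shores and near start sites were not matched for CpG number or coverage. With at least 10 reads per CpG, 75 hyper and 526 hypo tiles were called. Of the hypo tiles 45.01% lay in introns only and 36.4% between genes, of the hyper tiles 34.2% and 38.0%, and of all tiles tested 38.5% and 49.0%. Only 9 of the 958 called tiles directly followed another called tile.

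These calls count a read at each CpG it covers. Another setting counted reads once per 250 bp and kept every difference. It also replaced Fisher's exact test by a Wald test on the log odds ratio, with 0.5 added to each scaled count. Under it 0 tiles passed. In that Wald test 14743 tiles (0.772%) had an unadjusted p under 0.05, and 5.64% of the gene bodies described below. A call lost under this setting is not a smaller difference. The parts of fewer reads and of the change of test in these losses were not tested. When the Wald statistic on all reads was divided by its own spread over all tiles, 34 hyper and 178 hypo tiles passed. Leaving out chromosome 10 from 65 to 70 Mb and testing again gave 171 hyper and 758 hypo tiles. Of the 174 hyper and 766 hypo tiles called above that lie elsewhere, 37 (21.3%) and 52 (6.79%) had a start site within 1 kb, and islands held 8.05% and 0.914%.

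The named tiles were, in each direction, the 8 with the largest differences among called tiles that had 8 CpGs or more and, in both libraries, 10 reads or more per CpG, and no CpG at 10% or less in one and 90% or more in the other. Of the 8 hyper tiles, 3 lay in the chromosome 10 stretch. They were in an intron of Rtkn2 (tile start 67991001, 75.4% against 40%), 1339 bp from Zfp365 (67914001, 71.01% against 35.7%) and 7261 bp from Rtkn2 (68067001, 70% against 42.1%). These 3 tiles held 4, 4 and 3 of the CpGs that were near 0% at 3 ppm only. The other 5 held none. A tile in an intron of Gpc5, which encodes a glypican of the cell surface, was at 66.4% against 36.3% (chromosome 14, 115206001 to 115207000; adjusted p 0.00104, Fisher's exact test). It overlaps the Gpc5 DMR shown above. A tile in an intron of Tnnt3, a skeletal muscle troponin T gene, was at 86.7% against 58.9%. The tile that ends 184 bp before Atf4, a transcription factor of the stress response to amino acid shortage, was at 69.03% against 41.2%. A tile at the imprinted gene Zrsr1, which lies inside Commd1, was at 68.9% against 39.6%. A tile at the start of Pnpla8 was at 36.8% against 9.15%, and this difference changed sign, to -1.37 points, when each CpG had to have 10 reads.

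Among the 8 hypo tiles, the tile in Hnrnpa2b1, which encodes an RNA-binding protein of splicing and RNA transport, was at 31.9% at 30 ppm and 64.3% at 3 ppm (chromosome 6, 51467001 to 51468000; adjusted p 0.000889, Fisher's exact test). It overlaps the Hnrnpa2b1 DMR shown above. A tile over the exon of Sox11, a transcription factor of newborn neurons, was at 4.86% against 35.6% (chromosome 12, 27337001 to 27338000; adjusted p 6.28e-07, Fisher's exact test). A tile at Lmo3, a LIM-only transcriptional cofactor, was at 39.5% against 71.9%. The largest negative difference was in an intron of the non-coding gene 9530059O14Rik, at 34.1% against 68.2% (adjusted p 8.78e-07, Fisher's exact test). Intergenic tiles with Med13l, Rcbtb2 and Sncaip nearest were at 35.1% against 67.7%, 54.2% against 86.1% and 22.6% against 54.2%, and lay 295563, 6037 and 8709 bp from these genes. A tile at the start of Gm14322 was at 23.5% against 53.9%. For each of the 16 named tiles the call was lost with reads counted once per 250 bp.

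Promoters were compared within 1 kb of the start site. Of 48791 promoters tested, 130 were higher (0.266%) and 145 lower (0.297%) at 30 ppm by the same rule as for tiles. The balance depended on the read minimum: 19 were higher and 58 lower with at least 10 reads per CpG, and 408 higher and 196 lower with no minimum. Overlapping windows reduce these to 118 and 130 separate regions. Protein-coding genes made up 83 of the higher and 62 of the lower promoters. The median promoter differed by -0.290 points. By the position of the start site, the median was 0.125 points over 11165 promoters in islands, with 62 higher and 38 lower. It was -0.531 points over 32087 promoters in the open sea, with 39 higher and 77 lower. Of 4233 promoters in shores, 28 were higher and 29 lower. With reads counted once per 250 bp, 1 promoter was called.

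Among called promoters, the highest difference belonged to that of Grik4, a subunit of kainate-type glutamate receptors. It was at 72.9% (95% Wilson interval 62.7 to 81.2) at 30 ppm and 41.7% (30.1 to 54.3) at 3 ppm over 8 CpGs. In a window of 2.5 kb on each side the Grik4 difference was -0.280 points. The Atf4 promoter was at 45.2% (38.0 to 52.6) and 15.3% (12.02 to 19.3) over 27 CpGs (adjusted p 3.21e-09, Fisher's exact test). Intervals here cover counting error only, and they treat the CpGs of a read as separate. Alox12b, a lipoxygenase of the skin barrier, was at 55.8% against 27.6%. Hspg2, which encodes the basement membrane proteoglycan perlecan, was at 49.4% against 25.3%. Vtn, which encodes the adhesive glycoprotein vitronectin, was at 46.6% against 25.4% (adjusted p 0.000158, Fisher's exact test). Mcoln2, a lysosomal cation channel gene, was at 55.2% against 33.9%, and Prkg2, a cGMP-dependent kinase gene, at 59.7% against 40.4%. Parp16, an ADP-ribosyltransferase gene, was at 63.6% against 43.5%. The non-coding gene Gm4349 was at 64.3% against 38.2% and the pseudogene Gm13217 at 80.2% against 61.5%.

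Among promoters lower at 30 ppm, Gm14322 was at 26.5% (20.1 to 34.2) against 55.04% (46.4 to 63.4). The olfactory receptor gene Olfr742 was at 61.8% against 84.2%, and the T cell receptor joining segment Traj32 at 35.3% against 57.6%. Cldn22, a tight junction claudin gene, was at 40.9% (36.5 to 45.4) against 62.8% (58.1 to 67.3) over 34 CpGs (adjusted p 5.76e-07, Fisher's exact test). Get4, which takes part in the insertion of tail-anchored membrane proteins, was at 30.3% against 51.3%. The pseudogenes Ppp1r2-ps4 and Gm14176 were at 29.1% against 50.1% (adjusted p 9.28e-08, Fisher's exact test) and at 44.7% against 66.7%. The microRNA gene Mir6954 was at 34.1% against 55.7%, and its difference turned to 0.856 points with 2.5 kb and to 6.03 points with 500 bp on each side. The remaining transcripts 8030451A03Rik and Gm43119 were at 51.5% against 72.5% and at 42.2% against 62.8%. The call of each of these 20 promoters was lost with reads counted once per 250 bp.

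**Figure D4:**
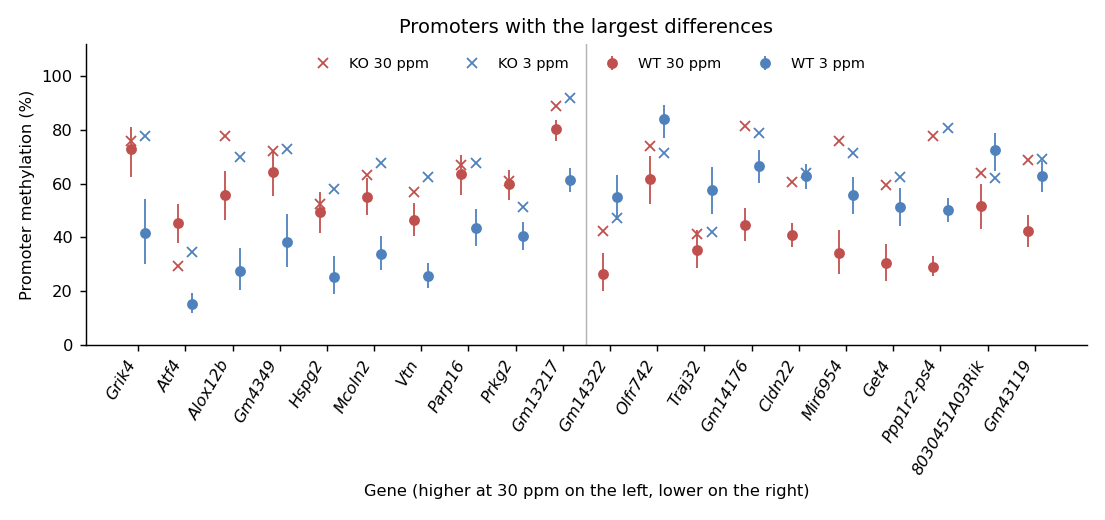
Methylation (percent, y axis) of the 10 called promoters with the largest positive and the 10 with the largest negative difference between the WT libraries. Circles are the WT libraries at 30 ppm (red) and 3 ppm (blue) with 95% Wilson intervals on the reads, and crosses are the KO libraries; the promoters were chosen on the WT circles, so their separation is given by that choice, while the KO crosses of a promoter lie closer together at most of them.

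Genes of the folate pathway were looked at as lists, which were chosen with earlier results of these data known. None of the promoters of 6 folate carriers, 14 genes of the cytosolic folate cycle, 12 genes of mitochondrial folate and glycine cleavage, 16 genes of the methionine cycle and 18 genes that write, read or erase DNA methylation passed the test. Over all promoters 0.266% were called higher and 0.297% lower, and at such shares lists of this size would hold few calls or none. The median differences of the 5 lists were -1.93, 1.24, -1.07, -0.171 and 0.941 points, beside -0.290 points for all promoters. An unadjusted p under 0.05 was found for 1, 3, 2, 1 and 5 of them, where 10.4% of all promoters had one. The carrier Slc46a1, the proton-coupled folate transporter, was at 30.3% at 30 ppm and 34.2% at 3 ppm (adjusted p 0.767, Fisher's exact test). Folr2, a folate receptor, was at 83.4% against 89.3% (adjusted p 0.424). In the cytosolic cycle, Mtrr, which keeps methionine synthase reduced, was at 23.0% against 34.4%, and Mthfd1, which interconverts folate one-carbon forms, at 34.1% against 24.9%. In mitochondria, Mtfmt, which formylates the initiator tRNA, was at 28.9% against 38.9%, and Aldh1l2, which oxidises formyl-folate, at 36.6% against 45.8%. Of the methionine cycle genes, Cth, which makes cysteine from cystathionine, was at 50.2% against 39.5% (adjusted p 0.0778), and Ahcyl2, a homolog of adenosylhomocysteinase, at 14.8% against 19.3%. Among the DNA methylation genes, the de novo methyltransferase gene Dnmt3a was at 53.7% against 68.3%, and Gadd45a, linked to demethylation through repair, at 21.6% against 33.1%. The Gadd45a difference turned to 1.81 points with 500 bp on each side.

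Lists of the neural tube and brain held 3 calls, all higher at 30 ppm, where 0.266% of all promoters were called higher and 0.297% lower. Of 31 promoters of neural tube closure genes, 1 was called: Dvl2, which relays Wnt and planar polarity signals, at 43.3% against 29.3% over 29 CpGs (adjusted p 0.0187, Fisher's exact test). Grhl3, a surface ectoderm transcription factor needed for closure of the spinal neural tube, was at 21.6% against 15.5%. Of 33 promoters of glutamate and GABA receptor genes, 2 were called, Grik4 as above and Grik1, another kainate receptor subunit, at 24.5% against 13.3% (adjusted p 0.0206, Fisher's exact test). Both the Dvl2 and the Grik1 call were lost with reads counted once per 250 bp, with at least 10 reads per CpG, with the test statistic divided by its spread and in promoters of 500 bp on each side. The Dvl2 call was also lost after thinning to equal depth, with 5 reads in each of the 4 libraries and in promoters of 2.5 kb on each side. Grm5, a metabotropic glutamate receptor gene, was at 38.0% against 46.1%. None of 19 neural progenitor and 15 neuron promoters passed. Fabp7 and Notch1, both of radial glia and progenitors, were at 13.6% against 21.3% and at 70.7% against 77.7%. The neuronal tubulin gene Tubb3 was at 19.2% against 35.8% (adjusted p 0.0829), and Map2, a dendritic microtubule protein gene, at 20.7% against 26.3%. The Tubb3 difference turned to 7.89 points with at least 10 reads per CpG, and with 500 bp on each side those of Map2 and Notch1 turned to 0.483 and 0.353 points. Median promoter levels were 1.63% and 1.70% for the neural progenitor list, 7.87% and 6.20% for neurons, 7.51% and 6.93% for mesenchyme with neural crest, and 89.5% and 89.4% for germline genes, so these levels do not tell the tissue from other somatic tissue. Promoters of genes of blood cells, endothelium, mesenchyme with neural crest, and surface epithelium, 11, 8, 12 and 8 measured, had median differences of -1.10, 0.179, 0.242 and 1.02 points and held 0 calls. Methylation of bulk tissue does not tell a shift in the cell types sampled from a change within a cell type.

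Of the 15 lists, that of imprinted genes held the most calls. Of 24 promoters measured, 4 were called higher (Meg3, Nap1l5, Nnat and Peg13) and 1 lower (Slc38a4) at 30 ppm, where 0.266% and 0.297% of all promoters were. An unadjusted p under 0.05 was found for 10 of the 24, against 10.4% of all promoters. The median difference was 5.16 points and 17 of 24 were above 0, where the median of all promoters was -0.290 points and 53.4% of them were below 0. The listed promoters had median levels of 60.2% at 30 ppm and 55.8% at 3 ppm, against 78.0% and 78.8% for all promoters. Tiles at 40% to 60% in KO were called more often than all tiles, 0.0489% of them hyper and 0.199% hypo. The shares of calls given here were not matched for level. Meg3, a maternally expressed non-coding RNA, was at 57.9% against 45.2% (adjusted p 0.00589, Fisher's exact test). Nap1l5, a paternally expressed gene of the nucleosome assembly protein family, was at 70.95% against 58.7%. Nnat, the paternally expressed neuronatin, was at 60.8% against 48.5% over 88 CpGs (adjusted p 2.2e-05, Fisher's exact test). Peg13, a non-coding RNA within Trappc9, was at 64.0% against 53.7%. Peg10 was at 72.1% against 62.1%, a difference of 9.99 points just under the minimum. Slc38a4, an amino acid transporter gene, was at 62.9% against 76.6% (adjusted p 7.31e-06, Fisher's exact test). Other imprinted promoters did not all share a direction. H19 was at 66.3% against 59.1% and Kcnq1ot1 at 59.3% against 53.0%, but Igf2 was at 71.7% against 80.9% and Grb10 at 16.0% against 22.0%. These windows lie at start sites and need not hold the imprinted control region, and the deposited DMR in Grb10, given below, was higher at 30 ppm. In the KO pair, Meg3 was at 55.6% at 30 ppm and 42.8% at 3 ppm, while Nnat was at 56.7% against 62.0% and Peg13 at 57.3% against 62.97%. Nap1l5, at 72.3% against 66.1%, and Slc38a4, at 66.2% against 72.8%, had the same sign in KO as in WT. None of the 5 calls held with reads counted once per 250 bp. With that setting included, the call was lost under 5 alternative settings for Peg13, 4 for Meg3, 3 for Nap1l5 and 2 each for Nnat and Slc38a4.

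**Figure D5:**
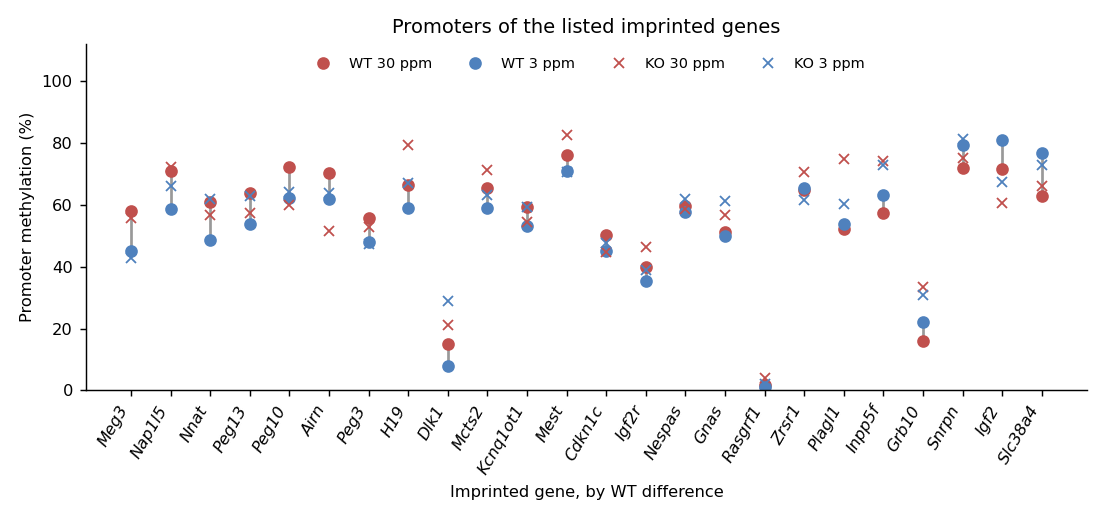
Promoter methylation (percent, y axis) of the 24 listed imprinted genes, ordered by the WT difference, in WT (circles) and KO (crosses) at 30 ppm (red) and 3 ppm (blue); grey lines join the WT values. The WT value at 30 ppm is above that at 3 ppm for 17 of 24 genes, and the KO pair follows neither direction throughout.

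The DMRs deposited for this comparison were called by the authors on the same libraries, so the values here describe them and test nothing. Of 144 deposited, 79 were hyper and 65 hypo, and 132 lay on autosomes (74 and 58). At 53 of these no CpG had 5 reads in both libraries, 13 had 1 or 2 such CpGs, and 66 were scored. The 36 hyper DMRs scored had a median level of 78.8% at 30 ppm and 35.4% at 3 ppm and ranged in difference from 16.9 to 50.9 points. The 30 hypo DMRs scored had 37.0% and 75.2%, from -49.1 to -4.55 points. The median coverage was 7.43 and 8.72 reads per CpG at the hyper DMRs and 12.01 and 14.4 at the hypo DMRs. Of the hyper DMRs, 35.1% lay in islands, and of the hypo DMRs 8.62%.

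Among DMRs with at least 5 CpGs and 10 reads per CpG, the 5 with the largest hyper difference lay near Gas6 (93.8% against 49.1%), in Gpc5 (70.1% against 27.0%), near Cstf3 (47.9% against 18.1%), in Grb10 (81.6% against 53.1%) and in Atf2 (94.8% against 72.2%). Gas6 encodes a ligand of the TAM receptor kinases and Atf2 a transcription factor of the AP-1 type. The region nearest Cstf3 lay 17431 bp from that gene and was at 74.6% and 70.7% in the KO libraries. The 5 hypo DMRs lay in introns of Qk, an RNA-binding protein gene of glia and vessels (32.1% against 75.4%), Dscam, a neuronal adhesion molecule gene (43.2% against 84.8%), Aktip (29.7% against 71.1%) and Stim2, a calcium sensor gene of the endoplasmic reticulum (42.3% against 82.5%), and in Hnrnpa2b1 (39.3% against 80.4%). At 28 hypo DMRs with KO values the KO difference was above 0 at 19, with a median of 3.28 points, and at 32 hyper DMRs at 19, with a median of 2.45 points. For all tiles the KO difference was above 0 at 56.6%.

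Imprinted loci were also found among the DMRs. These rest on the same libraries as the imprinted promoter calls. At Nap1l5, Nnat, Meg3 and Slc38a4 they lie within 1 kb of the same start sites, so they are not a second observation. The same holds at Peg10, whose promoter difference fell just under the minimum. The list of imprinted genes was chosen with earlier results of these data known. Of the 74 hyper DMRs, 10 (13.5%) lay within 5 kb of a listed imprinted gene, and of the 58 hypo DMRs 2 (3.45%), against 0.0596% of the tiles tested. By the same midpoint rule as for all tiles, 8 called hyper tiles (4.28%) and 4 called hypo tiles (0.519%) lay there. These shares were not matched for level or CpG number. In Peg10 the DMR was at 82.8% against 44.5%, with 42.8% and 76.6% in KO at 30 and 3 ppm. In Gnas it was at 79.3% against 41.9%, with 86.3% and 63.5% in KO. The DMR at Nap1l5, which lies within Herc3, was at 84.8% against 38.6%, and the one at Mcts2, within H13, at 66.7% against 15.8%. At Nnat, Meg3, Peg13 and the Airn region of Igf2r the DMRs were at 69.8% against 44.9%, 61.2% against 29.4%, 80% against 35% and 85.4% against 60.9%. The hypo DMR in Slc38a4 was at 44.9% against 81.7%, with 58.6% and 78.9% in KO. Of the 9 hyper DMRs near imprinted genes with values in KO, the KO difference was above 0 at 5 and below 0 at 4. The DMRs named here had 5.00 to 17.5 reads per CpG in either WT library.

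Gene bodies were taken from 1 kb after the start site to the gene's end, and most of them were slightly lower at 30 ppm. Of 20188 bodies with at least 50 CpGs, 71.05% were lower at 30 ppm, with a median of -0.601 points. Over all 31851 bodies tested, whatever their CpG number, an adjusted p under 0.05 was reached by 2010 that were lower and 215 that were higher, with a median size of 1.81 points. With the minimum of 10 points, 51 bodies (0.16%) were called higher and 64 (0.201%) lower. With no read minimum these counts were 88 and 68. Hnrnpa2b1 was at 40.03% against 54.5% over 57 CpGs (adjusted p 2.68e-10, Fisher's exact test). Mettl23 was at 50.2% against 63.5% over 76 CpGs, and its body contains the splicing factor gene Srsf2 (35.6% against 55.4%), so these share reads. Hnrnph3, another splicing regulator, was at 57.8% against 70.5% over 85 CpGs. For Hnrnpa2b1, Mettl23 and Hnrnph3 the adjusted p with reads counted once per 250 bp was 0.00171, 0.0203 and 0.0142 (Wald test). Apoe, the main lipid carrier of brain, was at 52.2% against 64.5% and the hair keratin gene Krt86 at 64.1% against 75.6%. Among bodies with at least 50 CpGs, the 5 with the largest positive differences were Gm34964 (56.6% against 41.8%), Gm49521 (64.9% against 52.0%), Gm29283 (72.6% against 61.3%), Gm16183 (73.9% against 62.6%), all non-coding, and G6pc3, a glucose-6-phosphatase gene (86.2% against 75.4%). The 7 calls from Apoe on were lost with reads counted once per 250 bp. Of the listed genes, the body of the imprinted Zrsr1 was called, at 73.6% against 60.6% over 28 CpGs (adjusted p 0.00281, Fisher's exact test), with 68.4% and 74.0% in KO. It was chosen after its values were seen, and its call was lost with reads counted once per 250 bp.

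To see whether the WT differences recurred in KO embryos on the same diets, the called regions were scored in the KO pair, which shares no library with the WT pair. The KO difference was above 0 at 96 of 187 hyper tiles (51.3%) and at 500 of 768 hypo tiles (65.1%), where it was above 0 at 56.6% of all tiles. Without chromosome 10 from 65 to 70 Mb these were 96 of 174 (55.2%) and 496 of 763 (65.01%), with medians of 0.772 and 2.21 points. The median KO difference was 0.130 points at hyper tiles and 2.22 points at hypo tiles, against WT medians of 18.7 and -18.9 points. Hypo tiles were at a median of 76.7% and 74.2% in KO at 30 and 3 ppm. Hyper tiles were at 77.9% and 79.2%. At promoters, the KO difference was above 0 at 67 of 130 higher ones (51.5%) and 87 of 145 lower ones (60%), against 56.2% of all promoters. The Wald test of WT against KO log odds ratios passed at 40 hyper and 233 hypo tiles, and at 29 and 230 outside that stretch, where 1289 of all 1863069 tiles scored passed (0.0692%), but the tiles were chosen on the WT values that enter it. Over 1529659 tiles with 50 reads in each library, Pearson's r between the WT and KO differences was -0.0191, as a description across tiles that differ in CpG number and base composition.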

How the data were processed

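WGBS was analysed in 2 WT libraries of E11.5 brain, with the 2 KO libraries for comparison. According to the study's methods, the authors cleaned the reads with TrimGalore (0.6.10), aligned them to GRCm38.p6 with Bismark (0.23.1), removed duplicates and joined both strands of a CpG. The deposited files list, per CpG, the fraction of methylated reads and the count of reads, neither normalised; their product was rounded to methylated reads. The authors called DMRs with DSS. The DMR lists used here hold positions only.

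Autosomal CpGs with at least 5 reads in both WT libraries were summed over 1 kb tiles, promoters and gene bodies (GENCODE vM21) with at least 3 CpGs and compared by two-sided Fisher's exact test with Benjamini-Hochberg adjustment over all regions of a kind. Calls needed an adjusted p under 0.05 and 10 points. Reads at different CpGs of a fragment were treated as independent. With reads counted once per 250 bp, and with z divided by its robust SD, a Wald test on the log odds ratio replaced Fisher's exact test. KO values used CpGs with 5 reads in all 4 libraries, and a Wald test compared log odds ratios (0.5 added to all counts). Islands were computed from the sequence (over 200 bp, GC from 50%, CpG observed to expected over 0.6). Scripts used Python 3 with numpy, pandas, scipy and numba and were tested on simulated data. The simulated reads were independent, so they did not test the effect of reads shared between CpGs. Promoters named were the 10 called with the largest difference in each direction, gene bodies the 5 with at least 50 CpGs, tiles the 8 and DMRs the 5 described below, and list genes those called plus the 2 with the largest difference at 10 CpGs or more. Members and lists were chosen with earlier results of these data known.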

Additional observations from a re-analysis of the deposited data

Results flagged for a closer look

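At 21 named regions, the difference between the WT libraries differed from that between the KO libraries by a Wald test on log odds ratios. Adjustment was over all regions of a kind. This test also counts a read at each CpG it covers, so its adjusted p treats the CpGs of a read as independent. The regions were chosen for their WT difference, which the test also uses, and each value rests on 1 library per group. In 17 of them the signs were opposite. A region passes this test more readily when its KO difference has the other sign, so that count is in part given by the test.

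Among tiles, the tile in Rtkn2 (chromosome 10, start 67991001) differed by 35.4 points in WT and -22.5 in KO (adjusted p 3.2e-06), the tile nearest Zfp365 (start 67914001) by 35.3 and -6.79 (adjusted p 0.00336) and the tile 7261 bp from Rtkn2 (start 68067001) by 27.9 and -18.8 (adjusted p 0.000127). These 3 lie in the chromosome 10 stretch in which CpGs stepped from near 0% in WT at 3 ppm to 91.2% in KO at 3 ppm. The tile in Zrsr1 differed by 29.3 and -13.9 points (adjusted p 0.000107), the tile in Lmo3 by -32.4 and 22.7 (adjusted p 0.000285) and the tile in Sox11 by -30.7 and 8.15 (adjusted p 0.000151).

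Among promoters, over CpGs with 5 reads in all 4 libraries, Atf4 differed by 33.7 points in WT and -5.47 in KO (adjusted p 2.9e-06), Vtn by 24.0 and -5.75 (adjusted p 0.000586), Mcoln2 by 21.3 and -4.39 (adjusted p 0.0252) and Gm13217 by 18.7 and -2.87 (adjusted p 0.00317). Gm14176 differed by -25.4 and 2.79 points (adjusted p 0.0246), Cldn22 by -21.8 and -3.26 (adjusted p 0.0293), Ppp1r2-ps4 by -21.1 and -3.14 (adjusted p 0.0213) and Aldh1l2 by -9.86 and 4.61 (adjusted p 0.0254). The imprinted promoters Nnat and Peg13 differed by 15.2 and -5.28 points (adjusted p 9.28e-07) and by 10.2 and -5.72 points (adjusted p 0.00107).

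Among gene bodies, Gm49521 differed by 12.3 points in WT and -11.0 in KO (adjusted p 4.1e-10), Mettl23 by -13.1 and 6.11 (adjusted p 1.37e-08), Krt86 by -10.7 and 4.79 (adjusted p 4.63e-05), Hnrnpa2b1 by -14.5 and -2.23 (adjusted p 0.000235) and Hnrnph3 by -12.8 and -2.75 (adjusted p 0.00135).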

How the results depend on the processing

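No paired analysis was possible because each group has 1 library. For the same reason no library could be left out. The global difference was -0.724 points with at least 10 reads per CpG, -0.621 with no read minimum beyond the deposited one and -0.666 with 5 reads in each of the 4 libraries, and stayed within counting error of its value under the other settings. Counts that moved by more than 1.5 times are given as hyper, then hypo. With at least 10 reads per CpG, 75 and 526 tiles, 19 and 58 promoters, and 23 and 46 gene bodies were called. With no read minimum, the counts were 324 and 894 tiles, 408 and 196 promoters, and 88 and 68 gene bodies. Thinned to equal depth, 117 and 489 tiles were called. With z divided by its robust SD, 34 and 178 tiles, 28 and 30 promoters, and 9 and 11 gene bodies were called. With a minimum difference of 20 points, the counts were 75 and 323 tiles, 8 and 11 promoters, and 3 and 7 gene bodies. Promoters of 500 bp on each side gave 64 and 66 calls. Reads counted once per 250 bp and the removal of chromosome 10 from 65 to 70 Mb were chosen after seeing the data; the first gave 0 and 0 tiles, 1 and 0 promoters, and 1 and 3 gene bodies. The Wald test passed at 17 hyper tiles with at least 10 reads per CpG, and at 25 hyper and 139 hypo tiles when all 4 libraries were thinned. The median differences of the deposited DMRs were 34.4 to 35.4 points (hyper) and -36.9 to -35.0 points (hypo), in part over different DMRs scored.

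Of the 53 named regions with a call, 28 of the 49 measured lost it with at least 10 reads per CpG, 50 with reads counted once per 250 bp, 23 with the robust SD and 10 after thinning. Of the 27 called promoters among them, 18 lost the call with 2.5 kb on each side, and 11 of the 25 measured with 500 bp. The sign turned with at least 10 reads per CpG for the Pnpla8 tile (-1.37 points), Tubb3 (7.89) and Klf1 (9.80), with promoters of 2.5 kb on each side for Grik4 (-0.280) and Mir6954 (0.856), and with 500 bp for Mir6954 (6.03), Gadd45a (1.81), Notch1 (0.353), Map2 (0.483), Sox10 (1.41), Cldn6 (-4.02) and Epcam (2.53); the cause was not tested. Called tiles held more CpGs than most, a median of 16 (hyper) and 14 (hypo) against 7 for all tiles tested.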

Other observations

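The strongest single difference by Fisher's exact test lay in the body of Zc3h7a, a zinc finger gene, and was chosen after its values were seen. The body was at 58.9% at 30 ppm and 48.7% at 3 ppm over 416 CpGs (adjusted p 1.24e-51, Fisher's exact test), with 54.2% and 53.0% in KO. With reads counted once per 250 bp its adjusted p was 5.19e-14 (Wald test). Within this body, the promoter window of the microRNA gene Gm23935 was at 28.5% against 16.3% over 74 CpGs. It was the only promoter called with reads counted once per 250 bp (adjusted p 0.00408, Wald test). Coverage there was 66.9 and 103 reads per CpG, and 87.1 and 135 in the tile from 11144001 to 11145000 of chromosome 16, against means of 14.3 and 16.2. Reads of other copies of a sequence can pile up at 1 locus, and their part in this difference was not tested.

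By repeat content, tiles with 5% or less of masked sequence had a mean difference of -0.596 points, tiles from 5% to 25% masked -0.746 points, tiles from 25% to 50% masked -0.639 points and tiles that were masked over 95% -0.574 points. Hypo calls made up 0.0726% of the least and 0.00736% of the most masked of these tiles, and hyper calls 0.0197% and 0.00245%. The promoters with the largest differences in the lists of other cell types did not pass the test. Among them were Epcam and Cldn6, of epithelium, at 31.2% against 43.2% and at 38.7% against 28.8%, Tek and Pecam1, of endothelium, at 82.1% against 74.3% and 88.7% against 91.8%, Klf1 and Cx3cr1, of blood cells and microglia, at 35.4% against 41.1% and 69.4% against 73.0%, and Sox10 and Prrx2, of neural crest and mesenchyme, at 56.0% against 62.2% and 87.3% against 82.1%. In the germline list, Slc25a31 and Stk31 were at 83.8% against 88.6% and at 85.4% against 89.2%.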
